A study of Mus musculus with 8 samples.

Results

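Heme is broken down by heme oxygenase, which opens the ring and releases iron, carbon monoxide and biliverdin, and biliverdin reductase then turns biliverdin into bilirubin. The freed iron is stored in ferritin or leaves the cell through ferroportin, while new iron enters bound to transferrin through the transferrin receptor. Heme itself controls this circuit, because it binds the repressor BACH1 and takes it off the antioxidant response elements of the heme oxygenase 1 gene, where the activator NRF2 can then act. Expression of 10 genes of this circuit is described here in adipose precursors (APs), the cells of fat tissue that can become adipocytes. They are Hmox1 and Hmox2 (heme oxygenases), Blvra and Blvrb (biliverdin reductases), Fth1 (ferritin heavy chain), Slc40a1 (ferroportin), Tfrc (transferrin receptor), Bach1, Alas1 (the first enzyme of heme synthesis) and Fech (ferrochelatase, the last). They were chosen by name out of 19938 genes that are read by a probe set, meaning several probes along the same transcript, whose annotation gives exactly 1 symbol. Each of the 10 had exactly 1 such probe set, so no choice among probe sets was needed.

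RNA came from male wild-type C57BL/6J mice aged 7 to 8 weeks kept for 3 days on either a standard diet (SD) or a high fat diet (HFD), and no group carried a transgene or a drug. APs of the inguinal subcutaneous depot (scAPs) and of the perigonadal visceral depot (viAPs) were isolated with magnetic beads, which removed cells bearing CD45 or CD31 and then held cells bearing SCA-1. The 4 groups, SD scAP, HFD scAP, SD viAP and HFD viAP, had 2 Affymetrix arrays each, each array with RNA pooled from 3 mice. Arrays are named by the number in their labels, which were 1 and 2 for SD scAPs, 3 and 4 for SD viAPs, 5 and 6 for HFD viAPs and 7 and 8 for HFD scAPs. Levels are log2 of the deposited intensity, so a difference of 1 is a 2-fold difference, and levels of different genes are not compared because each probe set has its own brightness. A change passed when its p-value, from a linear model with moderated variances (limma) and adjusted by the Benjamini-Hochberg method, was under 0.05. P-values measure the spread between 2 pools per group, and with so few arrays a change that did not pass may still be present.

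The array labelled SD viAP replicate 4 stood apart. Trf, the gene of the iron carrier transferrin, had levels of 12.06, 11.90 and 11.94 on the other viAP arrays (3, 5 and 6), 9.01 on array 4, and 8.65 to 9.11 on the 4 scAP arrays. The summed intensity of 5 mesothelial markers was likewise 725 to 857 on arrays 3, 5 and 6, 290 on array 4, and 250 to 299 on the scAP arrays. Results that rest on this array are therefore given with and without it, and without it the SD viAPs have only array 3, which the model assumes to vary like the other groups. The defining precursor marker Pdgfra was at 11.01 to 11.56 on all 8 arrays, and in viAPs at 11.01 to 11.27 on SD and 11.52 to 11.55 on HFD. Ly6a, the other defining marker, has no probe set with 1 symbol. Of 6 measured precursor markers, Dpp4 ran from 8.55 to 11.41. In viAPs 3 of the 6 were higher and 1 lower on both HFD arrays, beside 31.2% of all probe sets lower. In scAPs 3 were higher and 0 lower, beside 21.7% and 18.8% of all probe sets. Of 12 macrophage markers at most 1 exceeded a level of 7 on any array (summed intensity 448 to 591). Of the markers that define macrophages, Adgre1 lay at 3.91 to 4.25, Ptprc at 4.81 to 5.67 and Cd68 at 6.29 to 7.84. Of 10 erythroid markers 4 have a probe set with 1 symbol, none of them a globin, and all 4 lay under 7 on every array, with Alas2, the erythroid form of the first heme synthesis enzyme, at 4.64 to 5.39. Globin, the protein part of hemoglobin, is read by probe sets that list several globin genes and so were not in the tests. The 2 alpha globin probe sets had intensities of 974 to 1419 in HFD scAPs, beside 223 to 320 in SD scAPs, 170 to 263 in SD viAPs and 183 to 271 in HFD viAPs. The 2 beta globin probe sets had 702 to 1318 in HFD scAPs, beside 221 to 274, 178 to 270 and 138 to 176. Both HFD scAP arrays thus lay above all others for globin, at log2 levels of 9.46 to 10.47. Endothelial markers moved with diet in scAPs, where 9 of 10 were higher on both HFD arrays than on both SD arrays, against 21.7% of all probe sets with 1 symbol. Their summed intensity was 1485 to 1584 in SD scAPs and 2577 to 2640 in HFD scAPs. In viAPs it was 1178 to 1206 on SD and 1356 to 1422 on HFD, although 5 of the 10 markers were lower on both HFD arrays. Of the macrophage markers 5 of 12, of the erythroid 4 of 4 and of the mature adipocyte markers 3 of 7 were also lower there, beside 31.2% of all probe sets. There 1 endothelial and 1 adipocyte marker were higher, but the share of all probe sets higher in viAPs was not counted, so nothing is read from higher counts there. In HFD scAPs 4 of the 7 adipocyte markers were lower and 2 higher, and of the 12 macrophage markers 4 were higher and 2 lower. Of all probe sets 18.8% were lower and 21.7% higher there. The summed intensity of the adipocyte markers was 1003 and 1275 in SD scAPs and 1439 and 1535 in HFD scAPs. The part of these cells, or of globin RNA, in the results was not tested. In such pooled RNA, a change in the share of a cell type cannot be told apart from a change in RNA per cell.

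The first question was which of the 10 genes changed after 3 days of HFD in each depot. Hmox1 and Bach1 rose in both depots, and the other 8 did not pass in either. The tests followed the methods' filter, which kept 3076 of 21789 probe sets by level (log2 above 7 on at least 3 arrays) and by variability over the arrays. Of the 10 genes 7 had the level and only Hmox1 and Bach1 also the variability, so that passing the filter already selected genes that moved. Genes outside it were adjusted over all 21789 probe sets. Many genes changed beside them. In viAPs 60.6% of the filtered probe sets passed as higher and 4.19% as lower, and 4.84% of all 21789 passed in either direction. In scAPs these shares were 29.1%, 1.3% and 0.00459%. Averaged over both depots they were 65.9%, 5.33% and 11.4%. The 2 genes that rose thus belong to a large class, and their number is not a result about the circuit. The median change of the 10 genes was -0.03 in viAPs and 0.10 in scAPs. It was 0.31 and 0.18 for all genes above level 7, and -0.05 and -0.0045 for all 21789 probe sets. Since only 7 of the 10 had that level, neither set matches them.

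**Figure D1:**
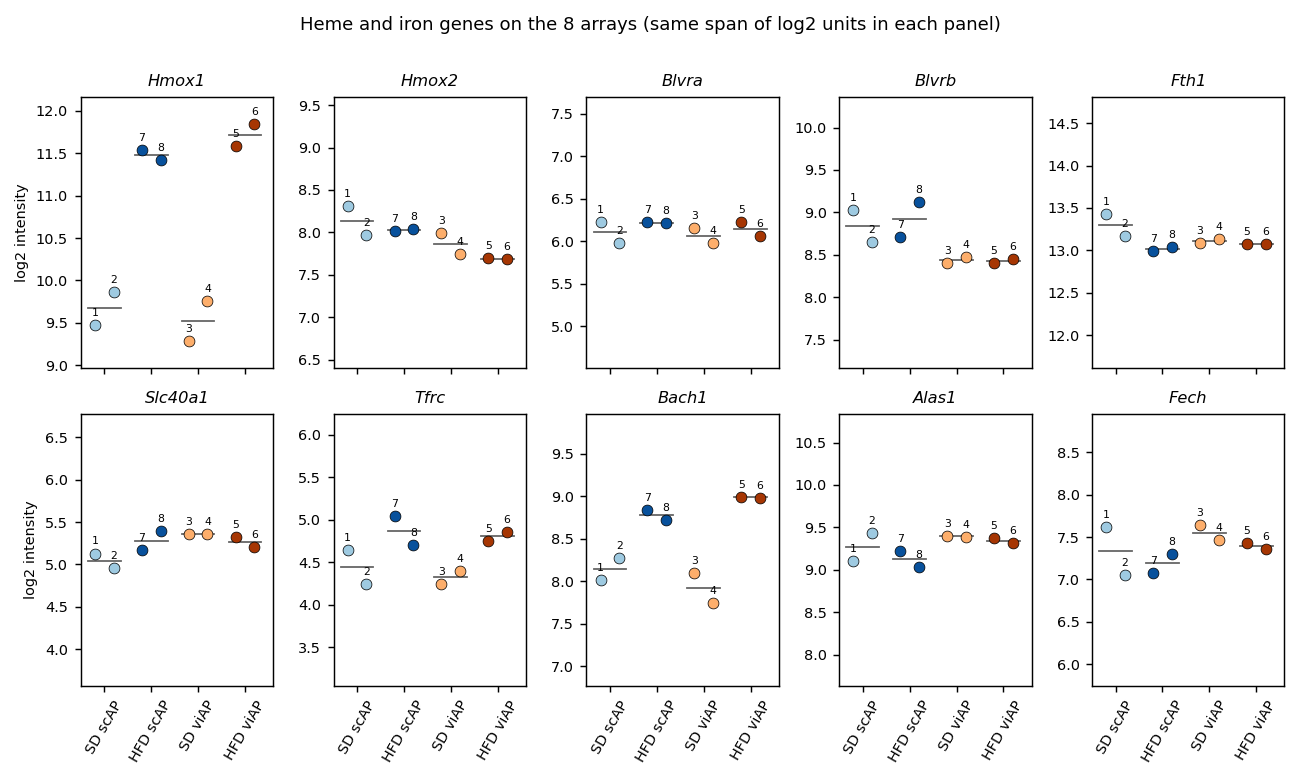
Log2 intensity (vertical axis) of the 10 genes in the 4 groups (horizontal axis). Points are arrays, numbered as in their labels, lines are group means of 2 arrays, and every panel spans the same number of log2 units. Hmox1, Bach1 and Tfrc have all 4 HFD arrays above all 4 SD arrays, as 11% of all probe sets do, Hmox1 by the widest gap. Fth1 has all 4 HFD arrays below all 4 SD arrays, as 7.24% do. In the other panels the arrays of both diets overlap.

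Hmox1 encodes heme oxygenase 1, the inducible enzyme of the pair. Its levels were 9.48 and 9.86 in SD scAPs, 9.29 and 9.75 in SD viAPs, 11.59 and 11.84 in HFD viAPs, and 11.54 and 11.42 in HFD scAPs. All 4 HFD arrays were above all 4 SD arrays, as for 11% of the 21789 probe sets, and the SD groups of the depots overlapped. On the linear scale the intensities were 626 to 932 on the SD arrays and 2748 to 3671 on the HFD arrays. The change in viAPs was 2.19 (standard error 0.21, adjusted p = 0.0032), which is 4.57-fold with a 95% interval of 3.23 to 6.48. In scAPs it was 1.81 (standard error 0.21, adjusted p = 0.0141), or 3.51-fold (2.48 to 4.97). Averaged over both depots it was 2.00 (adjusted p = 0.0011). Among the 3076 filtered probe sets the increase ranked 9th in viAPs, 10th in scAPs and 4th in the mean of the depots. The study took up Hmox1 for its strong rise on these same arrays. Its rank and p-values here are therefore not independent of that choice. Relative to the median gene above level 7, Hmox1 rose by 1.88 in viAPs and by 1.63 in scAPs. Without array 4 the viAP change was 2.43 (adjusted p = 0.0143). The scAP change did not pass when HFD scAP replicate 7 or 8 was left out (adjusted p = 0.0839 and 0.0512), nor with p adjusted over all 21789 probe sets (0.0825), nor in a model of the 4 scAP arrays alone (0.0712). Globin intensities were also highest on the 2 HFD scAP arrays. In viAPs the ranges of alpha globin overlapped between diets, and the beta globin range on HFD lay below that on SD. The part of globin RNA, or of the cells that carry it, in the Hmox1 change of either depot was not tested.

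The constitutive enzyme did not pass in either depot. Hmox2, which encodes heme oxygenase 2, stood at 8.31 and 7.97 in SD scAPs, 7.99 and 7.74 in SD viAPs, 7.69 and 7.69 in HFD viAPs, and 8.01 and 8.04 in HFD scAPs. Its changes were -0.18 in viAPs (95% interval -0.55 to 0.20, adjusted p = 0.496) and -0.11 in scAPs (-0.49 to 0.26, adjusted p = 0.793). The intervals together span -0.55 to 0.26 and do not reach the size seen for Hmox1.

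The biliverdin reductases take over after heme oxygenase. Blvra, the main adult form, was dim, with levels between 5.98 and 6.23 on all 8 arrays, and changed by 0.08 in viAPs (-0.25 to 0.42, adjusted p = 0.726) and 0.12 in scAPs (-0.22 to 0.45, adjusted p = 0.754). Blvrb, which also acts as a flavin reductase, had levels of 9.03 and 8.65 in SD scAPs, 8.41 and 8.48 in SD viAPs, 8.41 and 8.45 in HFD viAPs, and 8.71 and 9.12 in HFD scAPs. Its change with diet was -0.02 in viAPs (adjusted p = 0.968) and 0.08 in scAPs (adjusted p = 0.887). Its pattern followed depot. All 4 viAP arrays lay below all 4 scAP arrays, which held for 1.92% of the 21789 probe sets, but not after a second quantile normalization. The viAP minus scAP difference was -0.39 on SD (-0.84 to 0.05, adjusted p = 0.546) and -0.49 on HFD (-0.93 to -0.05, adjusted p = 0.458), and neither passed.

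Iron that leaves heme meets ferritin and ferroportin. Fth1, the heavy chain that oxidizes iron for storage, had levels of 13.43 and 13.17 in SD scAPs, 13.09 and 13.13 in SD viAPs, 13.07 and 13.08 in HFD viAPs, and 12.99 and 13.04 in HFD scAPs. All 4 HFD arrays lay below all 4 SD arrays, as they did for 7.24% of probe sets, though the viAP arrays of both diets lay between 13.07 and 13.13 and the 8 arrays overlapped by diet after median centring and after a second quantile normalization. The change was -0.03 in viAPs (-0.34 to 0.27, adjusted p = 0.881) and -0.28 in scAPs (-0.59 to 0.02, adjusted p = 0.366). Slc40a1, the only known cellular iron exporter, was dim, at 5.13 and 4.95 in SD scAPs, 5.36 and 5.36 in SD viAPs, 5.32 and 5.21 in HFD viAPs, and 5.17 and 5.39 in HFD scAPs. Its change was -0.09 in viAPs (adjusted p = 0.681) and 0.24 in scAPs (adjusted p = 0.458). The sign thus differed between depots, without passing the test of that difference (-0.33, adjusted p = 0.824).

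Tfrc, which brings transferrin-bound iron into the cell, was dim, with intensities of 19 to 33 before log2. Its log2 levels were 4.64 and 4.25 in SD scAPs, 4.25 and 4.39 in SD viAPs, 4.75 and 4.86 in HFD viAPs, and 5.04 and 4.70 in HFD scAPs. All 4 HFD arrays were above all 4 SD arrays, as for Hmox1 and Bach1, a pattern that 11% of the 21789 probe sets showed. The change was 0.49 in viAPs (0.05 to 0.93, adjusted p = 0.159), 0.43 in scAPs (-0.01 to 0.87, adjusted p = 0.349) and 0.46 in the mean of the depots (0.15 to 0.77, adjusted p = 0.0694). The mean passed after median centring (0.58, adjusted p = 0.0289), after a second quantile normalization (0.60, adjusted p = 0.0475) and without SD scAP replicate 1 (0.56, adjusted p = 0.0462). Since the values are rounded to whole numbers, rounding alone can move the lowest Tfrc level by 0.04.

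Bach1 encodes the heme-sensing repressor of Hmox1. Levels were 8.02 and 8.27 in SD scAPs, 8.10 and 7.75 in SD viAPs, 8.99 and 8.98 in HFD viAPs, and 8.85 and 8.72 in HFD scAPs. All 4 HFD arrays were above all 4 SD arrays, as for Hmox1 and for 11% of the 21789 probe sets. The transcripts of the repressor and of its classical target were thus high on the same arrays, a pattern that many genes share. The change was 1.06 in viAPs (standard error 0.16, adjusted p = 0.0049), 2.09-fold with an interval of 1.60 to 2.73. In scAPs it was 0.64 (standard error 0.16, adjusted p = 0.0319), 1.56-fold (1.19 to 2.04). Averaged over the depots it was 0.85 (adjusted p = 0.0018). It ranked 315th of 3076 in viAPs and 608th in scAPs, and relative to the median gene above level 7 it was 0.75 and 0.46. Without array 4, where Bach1 was lowest, the viAP change was 0.89 (adjusted p = 0.018), and without HFD viAP replicate 5 it was 1.06 (adjusted p = 0.053). The scAP change was less secure. It lost its call when SD scAP replicate 1 (0.51) or 2 (0.77), HFD scAP replicate 7 (0.58) or 8 (0.70), or either HFD viAP array (0.64) was left out, with adjusted p between 0.0664 and 0.142.

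Promoter sequence was read for the members and for the other heme and iron genes, as the 250 bases before the start site in RefSeq (mouse build GRCm38.p6). Windows of 7 of the 10 genes, with 13 start sites, were read, and those of Hmox1, Slc40a1 and Fech were not used here. The antioxidant response element core was searched as TGACNNNGC on both strands, and 10.2% of all 32851 promoters of this length held it. The hypoxia response element core ACGTG was held by 16.6% and the GC box GGGCGG by 32.7%. A match is a description of letters and not a binding site. Bach1 and Blvra are shown as a member that rose and a member that did not pass, and Mafk and Gclm as a partner of BACH1 and a shared target of BACH1 and NRF2 that rose too. Capitals mark GC boxes in Bach1 and the antioxidant response element core, read on the minus strand, in the other 3.
Bach1, chr16:87698704-87698953, plus strand: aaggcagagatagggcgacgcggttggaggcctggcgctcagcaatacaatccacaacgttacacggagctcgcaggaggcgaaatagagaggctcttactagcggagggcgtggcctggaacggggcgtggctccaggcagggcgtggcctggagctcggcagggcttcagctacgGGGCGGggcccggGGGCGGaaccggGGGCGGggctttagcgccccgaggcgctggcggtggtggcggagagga
Blvra, chr2:127070407-127070656, plus strand: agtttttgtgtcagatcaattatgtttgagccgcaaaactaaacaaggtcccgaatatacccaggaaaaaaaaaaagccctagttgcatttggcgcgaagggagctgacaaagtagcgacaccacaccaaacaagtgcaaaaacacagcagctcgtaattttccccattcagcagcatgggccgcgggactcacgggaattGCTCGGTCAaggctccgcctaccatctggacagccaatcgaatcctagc
Mafk, chr5:139791286-139791535, plus strand: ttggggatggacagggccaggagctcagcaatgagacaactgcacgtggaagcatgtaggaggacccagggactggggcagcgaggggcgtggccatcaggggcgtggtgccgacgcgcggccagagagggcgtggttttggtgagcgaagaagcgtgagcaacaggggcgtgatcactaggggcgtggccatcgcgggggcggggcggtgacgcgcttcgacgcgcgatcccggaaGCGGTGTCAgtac
Gclm, chr3:122245307-122245556, plus strand: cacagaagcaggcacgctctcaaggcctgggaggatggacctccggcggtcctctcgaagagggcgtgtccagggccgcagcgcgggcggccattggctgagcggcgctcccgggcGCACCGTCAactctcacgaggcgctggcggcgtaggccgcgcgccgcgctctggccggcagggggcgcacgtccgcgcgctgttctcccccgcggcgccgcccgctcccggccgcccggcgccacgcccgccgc

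The window of Bach1 held 3 GC boxes, which begin 73, 60 and 48 bases before the start, no antioxidant core and no hypoxia core, and was 69.2% G or C. Among the 7 members Blvra alone held the antioxidant core, 49 bases before the start, and its level did not pass any test. The hypoxia core was in 1 of 2 windows each of Blvrb and Tfrc. In a list of BACH and NRF2 partners and targets, whose levels follow further on, 7 of the 13 genes with a window held the antioxidant core in at least 1 window, beside 11.5% of all 27025 genes. They include all 5 with a window that rose in viAPs, Mafk (13 bases before the start), Maff, Gclm (134 bases), Txnrd1 and Prdx1, and also Nfe2l2 and Mafg, which did not pass. Since the list was made of partners and targets of factors that bind this element, a share above that of all genes follows from the choice. Nothing is read from it, and a part of the core in the changes with diet was not tested.

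Alas1 and Fech, the first and last enzymes of heme synthesis, did not pass in either depot. Alas1 had levels of 9.11 and 9.44 in SD scAPs, 9.40 and 9.39 in SD viAPs, 9.37 and 9.32 in HFD viAPs, and 9.22 and 9.04 in HFD scAPs, with changes of -0.05 in viAPs (adjusted p = 0.85) and -0.14 in scAPs (adjusted p = 0.7). After a second quantile normalization its mean change over the depots was -0.39 and passed (adjusted p = 0.0398). Fech stood at 7.62 and 7.06 in SD scAPs, 7.64 and 7.46 in SD viAPs, 7.43 and 7.36 in HFD viAPs, and 7.08 and 7.30 in HFD scAPs. Its changes were -0.16 (-0.65 to 0.33) and -0.15 (-0.64 to 0.34), neither of which passed.

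**Figure D2:**
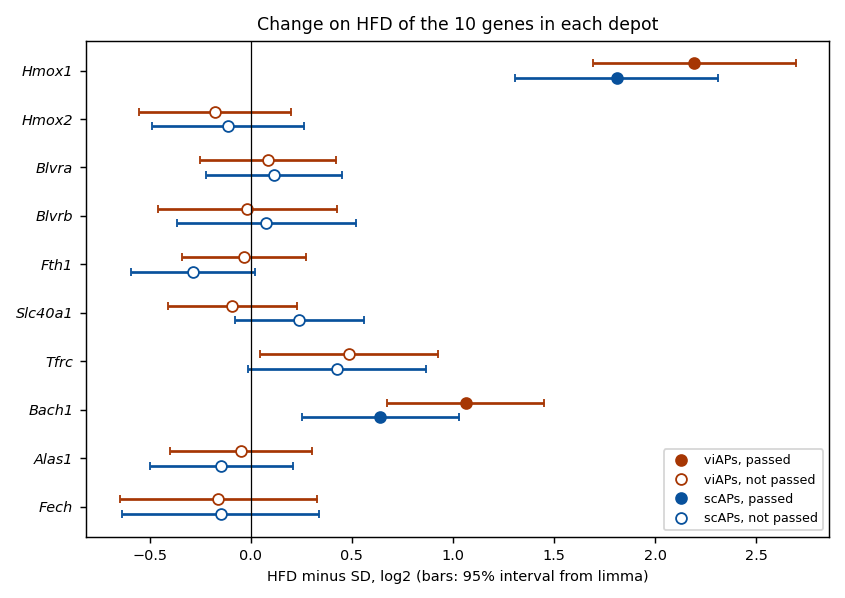
Change on HFD (horizontal axis, HFD minus SD in log2 units) of each of the 10 genes, in viAPs (orange) and scAPs (blue). Bars are 95% intervals from limma and filled points passed at an adjusted p under 0.05. Only Hmox1 (2.19 and 1.81) and Bach1 (1.06 and 0.64) have filled points, and the interval of Tfrc in viAPs starts at 0.05.

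The second question was whether depot changed the response or the starting level. The diet change in viAPs minus that in scAPs was 0.38 for Hmox1 (-0.33 to 1.09, adjusted p = 0.554) and 0.42 for Bach1 (-0.13 to 0.97, adjusted p = 0.444). None of the 10 genes passed, and none had an unadjusted p under 0.05. Across the array 0% of the filtered and 0.00459% of all probe sets passed. The larger viAP values of Hmox1 and Bach1 are therefore not shown to differ from those of scAPs, and the intervals allow a depot difference of up to 1.09 and 0.97. Between SD viAPs and SD scAPs none of the 10 passed (0% of probe sets in the filter and 0% of all), with Hmox1 at -0.15 (adjusted p = 0.652) and Bach1 at -0.22 (adjusted p = 0.399). None had an unadjusted p under 0.05 here, although 1 did without moderation of the variances. Between HFD viAPs and HFD scAPs none passed either, where 2.57% of the filtered and 0.00459% of all probe sets did. There Blvrb was the only 1 of the 10 with an unadjusted p under 0.05. Leaving out array 4 gave no pass in these 3 comparisons for Hmox1 (adjusted p = 0.467, 0.275 and 0.453) or Bach1 (0.628, 0.881 and 0.369).

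Over the 8 arrays, the Pearson correlation of log2 levels with Hmox1 was 0.937 for Bach1, 0.822 for Tfrc and -0.618 for Fth1, and between -0.462 and 0.332 for the other 6. These are descriptions over arrays of 4 groups that also share overall shifts of level. Of 6441 genes above level 7 (small RNAs and unnamed models left out), the 5 most like Hmox1 were Map7d1 (0.994), a microtubule-associated protein, Bag3 (0.989), a cochaperone, Ptprs (0.988), a receptor phosphatase, Lpar1 (0.987), a lysophosphatidic acid receptor, and Zfp335 (0.987), a zinc finger protein. Their changes in viAPs were 0.60 to 0.98, smaller than that of Hmox1. Zfp335 had mean levels of 6.94 in SD scAPs and 6.90 in SD viAPs. It therefore reached level 7 on at least 3 arrays only through HFD arrays, where Hmox1 is high too, and nothing is read from its place here.

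The other genes of heme and iron metabolism were taken from 6 lists of 76 genes, of which 72 were measured with 1 symbol. In viAPs 18 of the 72 rose and 0 fell, and in scAPs 13 rose and 0 fell, all of them among the 25 that the filter kept. Since the filter favours genes that moved, nothing is read from these counts or from those of each list given below. Of all filtered probe sets 60.6% passed as higher in viAPs and 29.1% in scAPs. With p adjusted over all 21789 probe sets, 11 of the 72 passed in viAPs and 0 in scAPs, beside 4.84% and 0.00459% of those probe sets. Of the genes that rose, Abcg2, Flvcr1, Gclm and Bmp6 reached the level that the filter asks for only through their HFD arrays, so their p over all probe sets is given as well. The median change of the 72 was 0.19 in viAPs and 0.15 in scAPs. The filter was drawn again whenever an array was left out. A gene could then move between adjustment within the filter and over all probe sets, so a lost or gained call need not reflect its change alone. Without array 4, 14 of the 72 passed in viAPs, since Abcg2, Steap4, Ncoa4, Cp and Pcbp1 dropped out and Lcn2, described further on, was counted. Without HFD viAP replicate 5 the count was 5 (Lrp1, Mafk, Gclm, Gclc and Txnrd1), and these 5 passed whichever array was left out. Flvcr1, Pcbp2, Aco1, Bmp6, Hif1a, Maff and Prdx1 lost their call in viAPs without HFD viAP replicate 5 (adjusted p 0.0537 to 0.0777) and kept it without any other array. Abcg2, Steap4, Scara5, Pcbp1, Ncoa4 and Cp lost it without any of 2 to 5 arrays. After a second quantile normalization 11 rose and Slc25a28, a mitochondrial iron carrier, fell in viAPs, and 5 rose in scAPs. The scAP count was 0 without HFD scAP replicate 7 or 8, 2 without SD scAP replicate 2 and 5 without either HFD viAP array.

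**Figure D3:**
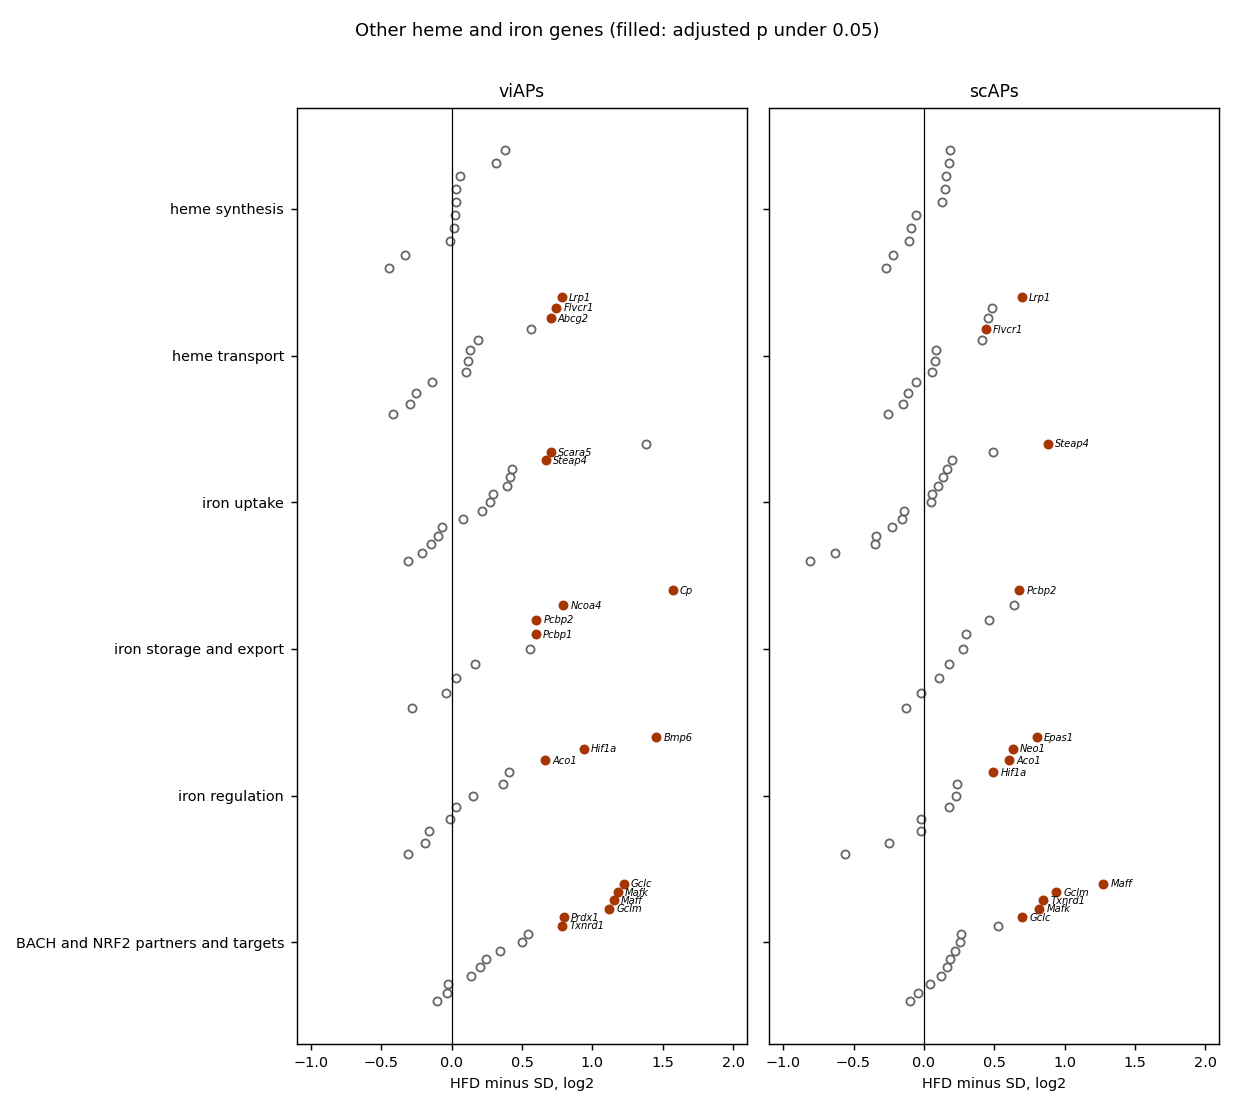
Change on HFD (horizontal axis, HFD minus SD in log2 units) of 72 other heme and iron genes in viAPs (left) and scAPs (right), grouped by list (vertical axis) and ordered by change within a list. Filled, named points passed at an adjusted p under 0.05, and all of them lie right of 0. No heme synthesis gene is filled, and 6 genes of the BACH and NRF2 list are filled in viAPs and 5 in scAPs. Of all filtered probe sets 60.6% passed as higher in viAPs and 29.1% in scAPs.

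No change in heme synthesis passed. None of its 10 measured genes (Alas1 and Fech not among them) passed in either depot, with median changes of 0.03 and 0.04. None of the 10 was in the filter, and 2 in viAPs and 0 in scAPs had an unadjusted p under 0.05 in the moderated test. Alas2 was 1 of these 2, at -0.45 in viAPs (adjusted p = 0.13), dim throughout.

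Heme transport had 3 genes of 12 that rose in viAPs and 2 in scAPs, out of 4 in the filter. Flvcr1, the heme exporter, had levels of 6.93 and 7.02 in SD scAPs, 6.55 and 6.75 in SD viAPs, 7.48 and 7.31 in HFD viAPs, and 7.38 and 7.45 in HFD scAPs, a rise of 0.74 in viAPs (adjusted p = 0.0062) and 0.44 in scAPs (adjusted p = 0.0454). Adjusted over all probe sets, p was 0.036 in viAPs and 0.2 in scAPs, where the change then did not pass. Lrp1, a large endocytic receptor that takes up hemopexin-bound heme among many ligands, rose by 0.78 in viAPs (adjusted p = 0.0044) and 0.70 in scAPs (adjusted p = 0.0142). Its 4 SD arrays lay at 10.35 to 10.42 and its 4 HFD arrays at 11.05 to 11.22, so spread within diets was small. Abcg2, a porphyrin exporter, differed by 0.70 in viAPs, which passed within the filter (adjusted p = 0.0147) and not over all probe sets (0.07) or without array 4 (0.50, adjusted p = 0.206), and by 0.41 in scAPs (adjusted p = 0.113). None of its 4 SD arrays was above level 7. The heme scavengers were dim, Hpx at 5.25 to 5.91 and Cd163 at 3.91 to 4.25.

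Of 15 iron uptake genes, 2 rose in viAPs and 1 in scAPs, out of 6 in the filter. Steap4, a ferrireductase, rose by 0.67 in viAPs (adjusted p = 0.0171), with 0.50 without array 4 (adjusted p = 0.0783), and by 0.88 in scAPs (adjusted p = 0.0215). Scara5, a receptor for ferritin, rose in viAPs by 0.71 (adjusted p = 0.0165) and had a change of -0.16 in scAPs (adjusted p = 0.518), with a depot difference of 0.87 that did not pass (adjusted p = 0.315). It was lower on SD viAP arrays (9.86 and 10.17) than in SD scAPs (10.98 and 10.64), and the HFD arrays of both depots lay at 10.50 to 10.80. Trf and Lcn2 were chosen after their values were seen, because array 4 decides them. With it, Trf differed by 1.38 between HFD and SD viAPs (adjusted p = 0.176), and without it by -0.14 (adjusted p = 0.413). Lcn2, a siderophore-binding protein, was at 10.26 on array 3 and 5.67 on array 4, beside 7.93 and 7.86 in HFD viAPs. Its diet change in viAPs was -0.07 with array 4 (adjusted p = 0.962) and -2.36 without it (adjusted p = 0.0143), a value that compares the HFD arrays with array 3 alone and takes no account of how far the SD viAP arrays differ. Its change of -0.81 in scAPs did not pass (adjusted p = 0.635). Without array 4 the spread came from the other 3 groups and that p was 0.0188.

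Iron storage and export gave 4 of 9 genes that rose in viAPs and 1 in scAPs, out of 4 in the filter. Cp, the gene of the ferroxidase ceruloplasmin, had levels of 9.06 and 9.59 in SD scAPs, 11.15 and 9.51 in SD viAPs, 11.95 and 11.86 in HFD viAPs, and 10.06 and 9.87 in HFD scAPs. The rise in viAPs was 1.57 (adjusted p = 0.0285) with array 4 and 0.75 (adjusted p = 0.0567) without it. Pcbp2 and Pcbp1 are RNA-binding proteins that also carry iron to ferritin. In viAPs they rose by 0.60 each (adjusted p = 0.0082 and 0.0145), though Pcbp1 had 0.56 without array 4 (adjusted p = 0.0576). In scAPs Pcbp2 rose by 0.68 (adjusted p = 0.0176). Ncoa4, which delivers ferritin for degradation, rose by 0.79 in viAPs (adjusted p = 0.0476), but was at 8.61 and 7.83 on the SD viAP arrays and had a change of 0.40 without array 4 (adjusted p = 0.441). The ferritin light chain Ftl1 had changes of -0.04 in viAPs and -0.02 in scAPs, neither of which passed.

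In the regulators, 3 of 11 genes rose in viAPs and 4 in scAPs, out of 5 in the filter. Bmp6, the ligand that signals iron load to the liver, had levels of 7.04 and 7.00 in SD scAPs, 7.58 and 6.73 in SD viAPs, 8.63 and 8.58 in HFD viAPs, and 7.19 and 7.32 in HFD scAPs. It rose in viAPs by 1.45 (adjusted p = 0.0064, over all probe sets 0.037), and by 1.03 without array 4 (adjusted p = 0.0143), and had a change of 0.23 in scAPs (adjusted p = 0.499). The depot difference of 1.22 (0.35 to 2.09) did not pass (adjusted p = 0.315). Hif1a, a hypoxia factor that also controls Hmox1 and Tfrc, rose by 0.94 in viAPs (adjusted p = 0.0054) and by 0.49 in scAPs, at the threshold (adjusted p = 0.05). Aco1, the iron regulatory protein IRP1, rose by 0.66 (adjusted p = 0.008) and 0.61 (adjusted p = 0.0235). Epas1, which encodes HIF2A, rose in scAPs by 0.80 (adjusted p = 0.049) and had 0.41 in viAPs (adjusted p = 0.17). Endothelial cells also express Epas1, and their markers were higher in HFD scAPs, but their part in the Epas1 change was not tested.

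BACH1 binds DNA as a pair with a small MAF protein, and the same elements serve NRF2. Of 15 such partners and targets, 6 rose in viAPs and 5 in scAPs, out of 6 in the filter, where 60.6% and 29.1% of all probe sets passed as higher. Mafk, a small MAF, had levels of 8.26 and 8.35 in SD scAPs, 7.91 and 8.32 in SD viAPs, 9.24 and 9.36 in HFD viAPs, and 9.27 and 8.98 in HFD scAPs. Its promoter window, printed with that of Bach1, holds the antioxidant core. The Mafk transcript rose by 1.18 in viAPs (adjusted p = 0.0048) and 0.82 in scAPs (adjusted p = 0.0235). Maff, another, rose by 1.15 (adjusted p = 0.0079) and 1.28 (adjusted p = 0.0176), and its levels went from 6.74 to 7.39 on SD arrays to 8.23 to 8.45 on HFD arrays. Gclm and Gclc encode the subunits of the rate-limiting enzyme of glutathione synthesis. Gclm rose by 1.12 in viAPs (adjusted p = 0.0041, over all probe sets 0.024) and by 0.94 in scAPs (adjusted p = 0.0142, over all probe sets 0.0851, which did not pass), with SD arrays at 6.55 to 6.95 and HFD arrays at 7.55 to 7.98. Gclc rose by 1.22 (adjusted p = 0.0044) and 0.70 (adjusted p = 0.0286). In scAPs none of these 4 passed without HFD scAP replicate 7 or without replicate 8. Nfe2l2, the gene of NRF2 itself, had changes of 0.35 (adjusted p = 0.416) and -0.04 (adjusted p = 0.971), and its inhibitor Keap1 of 0.20 and 0.12, which did not pass. Nqo1, a classical NRF2 target, was dim and had changes of 0.24 (adjusted p = 0.286) and 0.04 (adjusted p = 0.913).

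**Figure D4:**
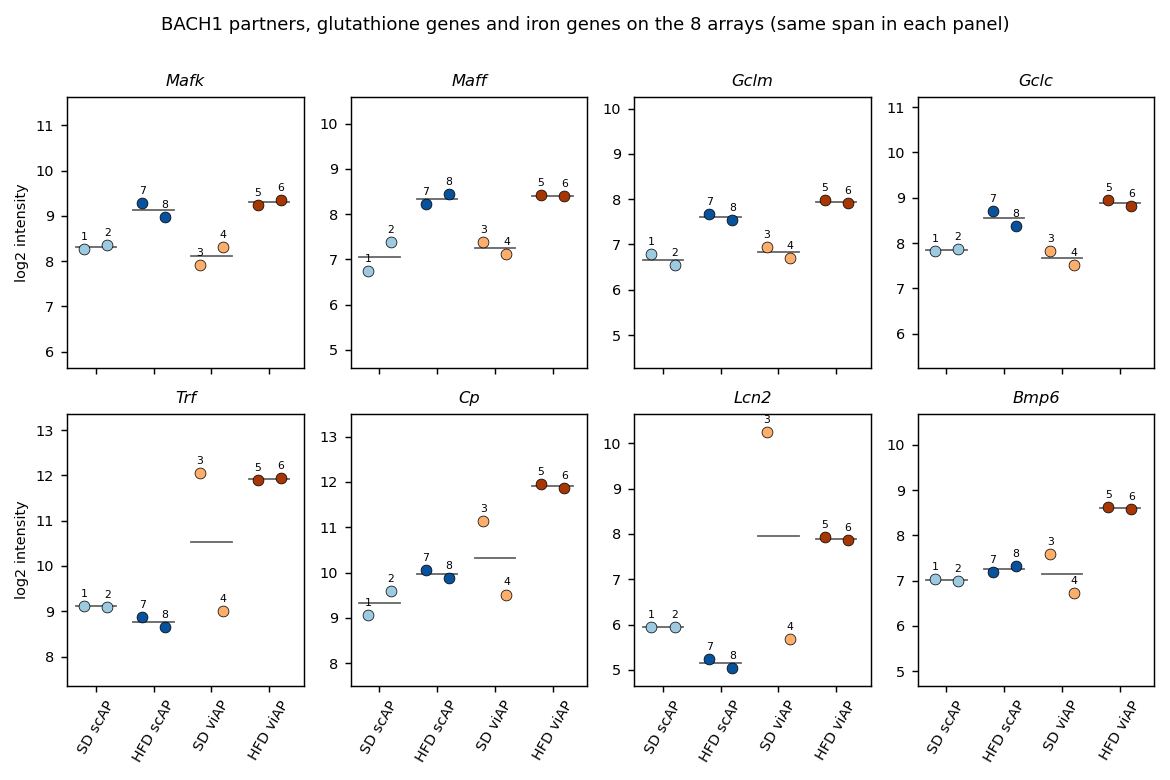
Log2 intensity (vertical axis) on the 8 arrays of BACH1 partners (Mafk, Maff), glutathione synthesis genes (Gclm, Gclc) and iron genes (Trf, Cp, Lcn2, Bmp6) in the 4 groups (horizontal axis). Points are arrays numbered as in their labels and lines are group means of 2 arrays. In the 4 upper panels all 4 HFD arrays lie above all 4 SD arrays, as for 11% of all probe sets. Each of these 4 genes had passed in both depots, so nothing is read from that separation. In Trf, Cp and Lcn2 array 4 of the SD viAP group lies at the scAP level (9.01, 9.51 and 5.67).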

How the data were processed

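The authors deposited 1 linear intensity per probe set and array as whole numbers for 35556 probe sets of the Mouse Gene 1.0 ST array (1 colour). The submitters' notes name RMA and Affymetrix Expression Console 1.1, the study's methods the R package oligo with quantile normalization, and neither gives the antilog or the rounding. Values were converted to log2 without further scaling. The 8 arrays and all probe sets entered a linear model (the limma package, version 3.58.1, under R 4.3.3) that gives each group its mean and moderates the variances by eBayes. Residual degrees of freedom were 4 and prior ones 2.64. Of the probe sets 21789 have 1 symbol, 1621 several and 12146 none. The filter kept log2 levels above 7 on at least 3 arrays (7315 probe sets) and the upper tercile of the mean absolute deviation over all probe sets (3076, for 2914 genes). Benjamini-Hochberg adjustment was within the filter for genes in it and otherwise over the 21789, at a threshold of 0.05. With an array left out or the values rescaled, the filter was drawn again. The number of arrays limits the precision, and labels give no batch. Arrays were grouped by their labels, and the code was tested on simulated data.

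The members and lists were chosen with earlier results of these data known. Genes named were all members, of each list the genes that passed in either diet comparison (up to 4 per list, by size of change), the 5 genes most correlated with Hmox1, and markers. Others were chosen after their values were seen. Start site windows came from RefSeq. Figures were drawn with matplotlib 3.10.9. Alternatives are given in the closing section.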

Additional observations from a re-analysis of the deposited data

How the results depend on the processing

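Hmox1 in viAPs kept its direction and passed under all alternatives run (change 1.96 to 2.43, adjusted p 0.0019 to 0.0459). In scAPs its change of 1.81 did not pass in a model of the 4 arrays (adjusted p = 0.0712) or without a filter (adjusted p = 0.0825), and when each array was left out in turn the change was 1.62 to 2.00. With 2 members that rose in each depot, the scAP count was 0 in the model of 4 arrays and without a filter, 1 after a second quantile normalization, with a filter on level only, without moderation and with a 2-fold threshold, and 0 to 2 with each array left out. The viAP count was 1 to 2 with each array left out. For the mean of the depots the count was 4 after a second quantile normalization and 1 with the 2-fold threshold. Pathway genes that passed in viAPs numbered 11 without a filter, 6 with the 2-fold threshold and 5 to 21 with each array left out. In scAPs they numbered 0 in the model of 4 arrays and without a filter, 5 after a second quantile normalization, with a filter on level only and without moderation, 1 with the 2-fold threshold and 0 to 13 with each array left out. The second quantile normalization moved the median change of genes above level 7 from 0.31 to 0.08 in viAPs and from 0.18 to 0.04 in scAPs. Filtered probe sets that passed as higher and lower were then 845 and 365 in viAPs (1864 and 129 as deposited) and 245 and 58 in scAPs (894 and 40). Median centring moved the medians to 0.45 and 0.28, with 2792 and 60 in viAPs and 1305 and 15 in scAPs. Of 1060 recomputed member changes 18 lost and 4 gained a pass, and 0 that had passed changed sign. All 18 losses were changes of Hmox1 or Bach1, the only members that had passed. The other 1038 stayed on their side of the threshold. Most of them had not passed before, so 1038 does not measure how stable the passes were. Of the changes that never passed, 50 changed sign (-0.25 to 0.27). Moderating over the filtered probe sets only was added after seeing the data. No cause of these differences was tested. A mean over several probe sets was not run, since every member has 1. No paired analysis was possible because the groups share no replicate numbers.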
